A study of Drosophila melanogaster with 9 samples.

Results

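The genes described here encode aminoacyl-tRNA synthetases, the enzymes that join each amino acid to its own tRNA and so supply the ribosome with charged tRNA. They were taken by symbol from a matrix of normalized gene counts: 21 of the 15334 genes listed there have a symbol starting with Aats-, the older prefix for the family in Drosophila melanogaster. All 21 reached the required mean of 10 over the 9 libraries, the lowest being Aats-phe with a mean normalized count of 956.79, so none lay outside the limit. By the present reference symbols all 21 are synthetases, 15 of them cytosolic and 6 mitochondrial. They lie on arms 2L (3 genes), 2R (4), 3L (6) and 3R (5) and on chromosome X (3). A further 14 synthetase genes of the same matrix go by other symbols and are set beside them below.

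RNA was sequenced from embryos of 3 kinds with 3 libraries each, aged 3 h at 25C and picked by hand at late stage 5 to early stage 6, about 50 embryos to a library. The obe2/Df and obe1/obe2 embryos were the progeny of mothers carrying the obe2 allele of obelus (obe, an RNA helicase gene) over a deficiency or over the obe1 allele, and their fathers were obe2/+. These names therefore give the mothers' genotype, and the embryos of 1 collection can differ in what they inherited. OreR is the Oregon-R wild-type strain. What the alleles change and how far the deficiency reaches are not in the labels. RNA was isolated in triplicate without a statement that the parents differed, so each p-value below rests on the variation among the triplicates, and this may be technical only. In whole embryos, fewer cells of a type and less RNA per cell cannot be told apart.

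Synthetases fall into both structural classes, I and II, which bind ATP through unrelated folds. The cytosolic enzymes serve the main protein synthesis machinery, and the mitochondrial ones are made from nuclear genes and imported. In vertebrates, several of the cytosolic enzymes sit together in a multi-synthetase complex held by AIMP scaffold proteins. Uncharged tRNA activates the kinase Gcn2, which phosphorylates the initiation factor eIF2. Until the blastoderm stage the fly embryo relies largely on RNA that the mother loaded into the egg, and zygotic transcription then takes over.

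Each library held between 61007517 and 123121486 reads counted to genes, and libraries of 1 group differed by more than counting noise. The targeted gene was low in both mutant groups: obe had 277, 245 and 183 normalized counts in obe2/Df, 821, 672 and 698 in obe1/obe2 and 5850, 8562 and 6755 in OreR. On the first principal component of all tested genes, which held 56.9% of the variance, obe2/Df replicate 1 stood at 108.5, apart from the 47.5 and 49.8 of the other obe2/Df libraries. Zygotic blastoderm markers such as eve, ftz and nullo moved with the groups. All 15 were lower in obe2/Df than in OreR (median log2 difference -4.57), their summed normalized counts spanning 20473 to 37336 in obe2/Df, 111330 to 256568 in obe1/obe2 and 188322 to 285413 in OreR. In obe1/obe2 against OreR, 0 of the 15 passed limma's test, 0 had an unadjusted p under 0.05, and edgeR and DESeq2 also called 0. All 15 differences were still negative there (median -0.48), with standard errors from 0.27 to 1.55. The median of the 15 against the OreR mean was -1.06, 0.22 and -0.94 in obe1/obe2 replicates 1, 2 and 3. In the OreR libraries it was -0.26 to 0.38. Of 9 maternally deposited markers, 4 rose and 3 fell in obe2/Df against OreR (77.8% in either direction, against 60.5% of all tested genes). Their sums were 1039419 to 1169586 in obe2/Df and 821676 to 956614 in OreR. Markers of later cell types summed to at most 982 in any library, and of the hemocyte markers He and NimC1 were at 0 throughout, while Hml had 0, 2.57 and 339 in obe2/Df, 2.87, 29.3 and 13.9 in obe1/obe2 and 23.5, 8.46 and 11.9 in OreR. The part of the zygotic and maternal markers in the synthetase results was not tested.

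Per length, 4 cytosolic genes were the most abundant members in every group: Aats-lys, Aats-thr, Aats-ile and Aats-tyr. In OreR, Aats-ile led with 10860 ± 452 normalized counts per kb of exon (SD, n = 3), followed by Aats-lys with 10074 ± 172 and Aats-thr with 9343 ± 573. Aats-tyr came next with 6971 ± 426 per kb, and the remaining cytosolic members lay between Aats-his, at 3620 ± 129, and Aats-glupro, at 660.25 ± 141.04. The 6 mitochondrial members and Aats-glupro made up the 7 lowest places in OreR, with Aats-ala-m last at 263 ± 20.3. This did not hold for every mitochondrial synthetase: under another symbol, CG31739 (aspartyl) stood at 6651 ± 83.0 per kb in OreR. The other mitochondrial ones under such symbols lay between 90.6 and 1018 per kb. The highest member exceeded the lowest 29.8-fold in obe2/Df, 24.9-fold in obe1/obe2 and 41.3-fold in OreR. Some neighbours in this order, such as Aats-arg at 2366 ± 88.7 and Aats-asp at 2377 ± 49.2 per kb in OreR, did not differ beyond their spread. Others did, such as Aats-tyr and Aats-his.

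**Figure D1:**
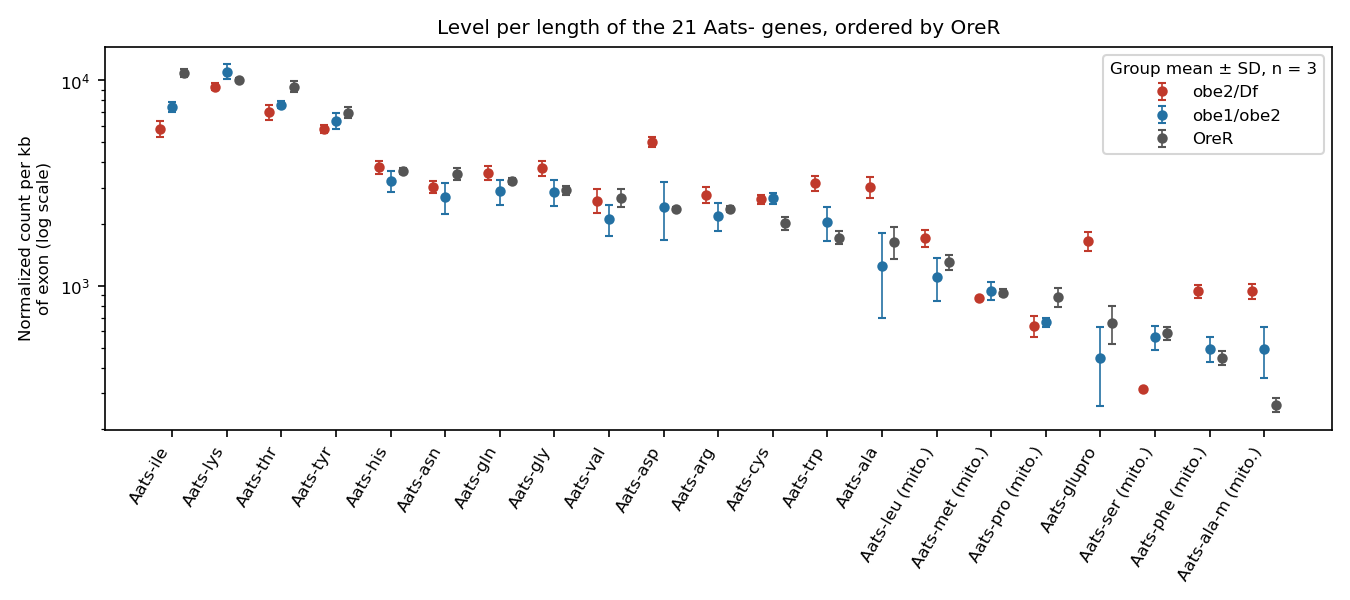
Normalized count per kb of exon (log axis) for the 21 Aats- genes, as group mean ± SD over 3 libraries, in the order of their OreR means. The mitochondrial genes and Aats-glupro fill the low end in OreR, and Aats-ser has the lowest obe2/Df value at 313 per kb.

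In obe2/Df against OreR, 13 of the 21 genes passed the test (limma, Benjamini-Hochberg adjusted p under 0.05 over the 8346 genes tested): 8 rose and 5 fell. Of all genes tested, 31.0% were called higher and 29.5% lower, 60.5% in either direction, so the members' share of 61.9% lies close to that of the genes at large. Changes went both ways over a wide span, from 1.84 for Aats-ala-m to -0.90 for Aats-ser on the log2 scale. The members' median log2 difference was 0.13, or 0.07 without obe2/Df replicate 1, against -0.01 over all tested genes. The 3 libraries of obe2/Df lay wholly above those of OreR for 11 members and wholly below for 8, which is 19 of 21. Of all tested genes 36.2% lay wholly above and 34.3% wholly below, 70.5% together. Calls that held whichever library was left out numbered 6 of the 8 higher ones and 3 of the 5 lower ones. The lower calls numbered 3 without OreR replicate 1 and 3 without obe2/Df replicate 1. Over all tested genes the lower calls numbered 2013 and 2053 in those fits, against 2460 with every library.

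In obe1/obe2 against OreR, 4 of the 21 genes passed: Aats-ala-m and Aats-cys rose, and Aats-ile and Aats-thr fell. Over all tested genes 11.0% were called higher and 11.7% lower, 22.6% together, against 19.0% of the members. The members' median log2 difference was -0.14 and that of all tested genes -0.07, the members' value being -0.22 without obe1/obe2 replicate 1 and -0.06 without obe1/obe2 replicate 2. Libraries of the groups did not overlap for 6 members, 2 above and 4 below OreR. Of all tested genes 17.1% lay wholly above and 20.2% wholly below, 37.3% together. Without obe1/obe2 replicate 1 the lower calls numbered 5, and without OreR replicate 1 or without obe1/obe2 replicate 2 they numbered 1. Over all tested genes the lower calls numbered 1399, 629 and 929 in those fits in turn, against 973 with every library. This comparison and the one above share the OreR libraries.

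**Figure D2:**
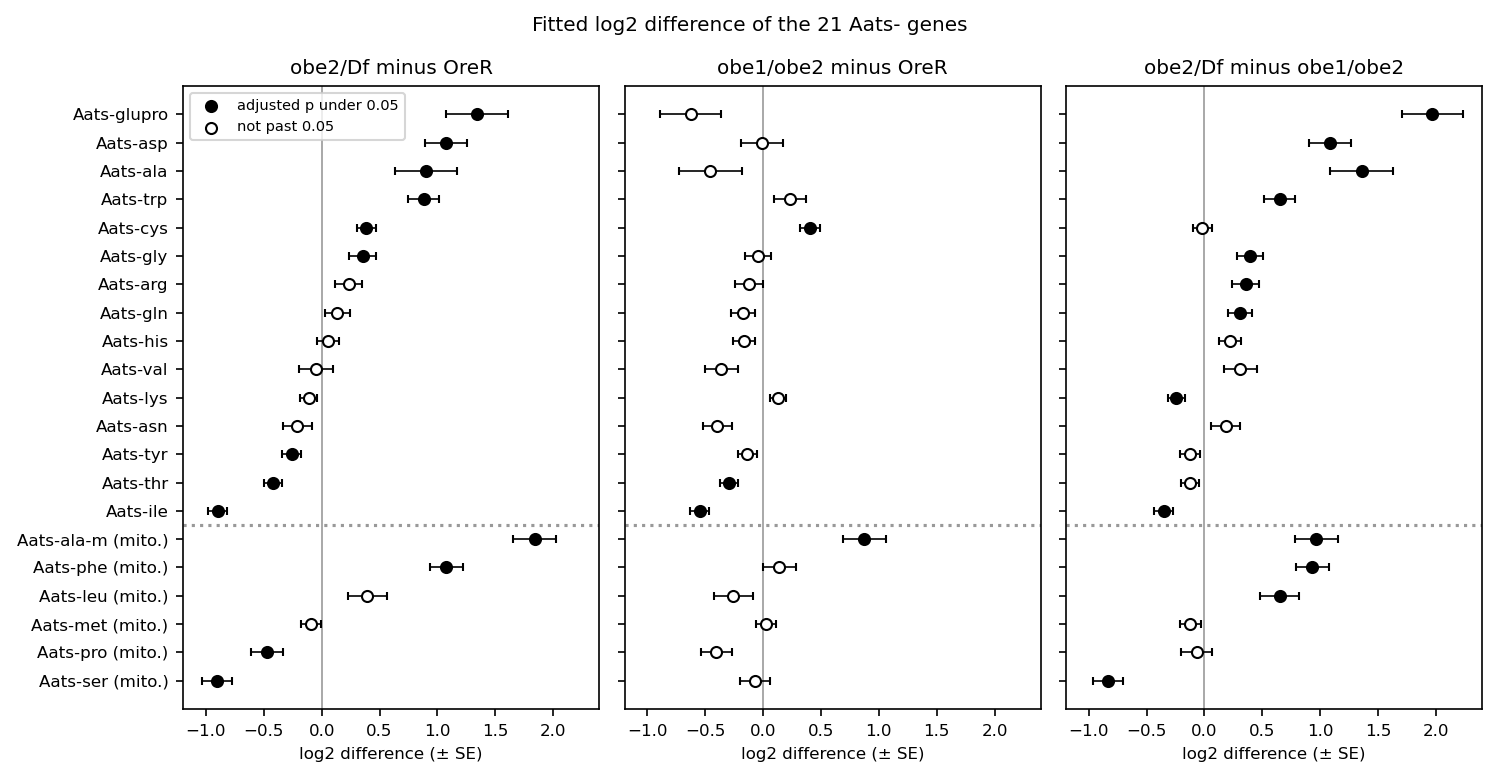
Fitted log2 difference ± SE of each Aats- gene in the 3 comparisons, cytosolic genes above the dotted line and mitochondrial genes below it. Filled points passed an adjusted p of 0.05. Aats-ala-m, Aats-glupro, Aats-asp and Aats-phe lie farthest right in obe2/Df minus OreR, and Aats-ser and Aats-ile farthest left.

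Among the 6 members whose vertebrate counterparts sit in the multi-synthetase complex, 2 rose and 1 fell in obe2/Df against OreR. That is 50.0% called, against 60.5% of all tested genes. Aats-glupro, a single protein that charges both glutamate and proline tRNA, had 10108, 8374 and 8569 normalized counts in obe2/Df, 3575, 1857 and 1820 in obe1/obe2 and 4194, 3875 and 2732 in OreR. Every obe2/Df library lay above every other library, while obe1/obe2 and OreR overlapped. The log2 difference from OreR was 1.34 ± 0.27 (SE, adjusted p = 0.00298) in obe2/Df and -0.63 ± 0.27 (adjusted p = 0.122) in obe1/obe2. Without obe1/obe2 replicate 1, the highest of its group, the obe1/obe2 difference was -0.94 and passed (adjusted p = 0.00648). An antisense RNA overlaps part of the gene's exons, and its reads could not be told apart from those of Aats-glupro, since the library kit does not mark strand.

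Aats-asp, the cytosolic aspartyl enzyme, had 11372, 10672 and 11938 normalized counts in obe2/Df, 7467, 4146 and 4916 in obe1/obe2 and 5511, 5299 and 5346 in OreR. The obe2/Df libraries again stood above all others, and the obe1/obe2 libraries spread to both sides of OreR. In obe2/Df it rose by 1.07 ± 0.18 (adjusted p = 0.0016). For obe1/obe2 the log2 difference was -0.01 ± 0.18 (adjusted p = 0.969). Other annotated genes overlap 76.3% of its exon bases, most of this an antisense RNA, so its count is uncertain. Of the partners that the matrix lists, Nmda1 had 6806, 7081 and 6706 in obe2/Df and 11240, 10158 and 10666 in OreR, the opposite direction to Aats-asp, and CR43468 stayed at 30.6 or less.

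Aats-ile, the cytosolic isoleucyl enzyme and the most abundant member per length in OreR, had 24784, 22917 and 20568 normalized counts in obe2/Df, 26977, 30231 and 29802 in obe1/obe2 and 44301, 41842 and 40882 in OreR. The 3 groups did not overlap at all. It fell by 0.90 ± 0.08 on the log2 scale in obe2/Df (adjusted p = 0.000108) and by 0.55 ± 0.08 in obe1/obe2 (adjusted p = 0.00196), to 0.536 and 0.685 of the OreR level. Both calls held whichever library was left out.

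The other 3 members of this group did not pass against OreR in either mutant. Aats-lys, which charges lysine tRNA and in vertebrates serves both compartments, had 20936, 22012 and 20389 normalized counts in obe2/Df, 23032, 24847 and 27229 in obe1/obe2 and 22575, 22628 and 23277 in OreR. The obe2/Df libraries lay just below the OreR ones, with a log2 difference of -0.11 ± 0.07 (adjusted p = 0.193). Aats-arg, the arginyl enzyme, had 6364, 5365 and 6105 in obe2/Df, 5335, 3896 and 4796 in obe1/obe2 and 4861, 5053 and 5240 in OreR. Aats-gln, the glutaminyl enzyme, had 9527, 8388 and 8283 in obe2/Df, 7956, 6020 and 7298 in obe1/obe2 and 7664, 7971 and 8202 in OreR. For both, all obe2/Df libraries were above all OreR libraries by a small margin, with log2 differences of 0.23 ± 0.12 (adjusted p = 0.122) and 0.13 ± 0.11 (adjusted p = 0.3).

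Of the 9 other cytosolic members, 4 rose and 2 fell in obe2/Df against OreR (66.7% called, against 60.5% of all tested genes). Aats-ala, the alanyl enzyme, had 11321, 8995 and 9685 normalized counts in obe2/Df, 6215, 2844 and 3314 in obe1/obe2 and 6074, 5795 and 4295 in OreR. Libraries of obe2/Df were higher than all others, and obe1/obe2 replicate 1 was about level with the highest OreR library. The log2 difference from OreR was 0.90 ± 0.27 (adjusted p = 0.0183) in obe2/Df, and the call was lost without OreR replicate 3 (adjusted p = 0.0668) or obe2/Df replicate 1 (adjusted p = 0.0527). In obe1/obe2 it was -0.46 ± 0.27 (adjusted p = 0.254), and -0.80 without replicate 1 of that group (adjusted p = 0.0102).

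Aats-trp, the tryptophanyl enzyme, had 5533, 4834 and 5599 normalized counts in obe2/Df, 4147, 2910 and 3217 in obe1/obe2 and 2759, 2775 and 3130 in OreR. It was 0.88 ± 0.14 higher on the log2 scale in obe2/Df than in OreR (adjusted p = 0.00105). The obe1/obe2 libraries lay between but overlapped OreR, with a difference of 0.23 ± 0.14 (adjusted p = 0.249).

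Aats-cys, the cysteinyl enzyme, was higher in both mutants, by similar amounts. It had 6854, 6195 and 6397 normalized counts in obe2/Df, 6794, 6086 and 6799 in obe1/obe2 and 4613, 5336 and 4930 in OreR. Neither mutant group overlapped OreR. The log2 difference was 0.39 ± 0.08 in obe2/Df (adjusted p = 0.00454) and 0.40 ± 0.08 in obe1/obe2 (adjusted p = 0.00927). Set against each other, the mutants differed by -0.02 ± 0.08 (obe2/Df minus obe1/obe2, adjusted p = 0.883).

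Aats-gly, the glycyl enzyme, had 10396, 8799 and 9381 normalized counts in obe2/Df, 8348, 6217 and 7240 in obe1/obe2 and 7059, 7444 and 7833 in OreR. The obe2/Df libraries did not overlap OreR, and the rise of 0.35 ± 0.11 (adjusted p = 0.0241) was a borderline call. It was lost without OreR replicate 1 or 2 or obe2/Df replicate 1 or 3, with adjusted p between 0.0539 and 0.0864.

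Aats-thr, the threonyl enzyme, had 21740, 20582 and 18541 normalized counts in obe2/Df, 21475, 21629 and 23175 in obe1/obe2 and 28894, 26620 and 25662 in OreR. Both mutants lay wholly below OreR. It fell by 0.42 ± 0.08 in obe2/Df (adjusted p = 0.00238) and by 0.29 ± 0.08 in obe1/obe2 (adjusted p = 0.0275), the second call being lost without OreR replicate 1 or 2 or without obe1/obe2 replicate 1 or 2 (adjusted p at most 0.0956). Aats-tyr, the tyrosyl enzyme, had 10052, 10832 and 10017 in obe2/Df, 10318, 11105 and 12348 in obe1/obe2 and 13195, 11750 and 12091 in OreR. Its fall of 0.26 ± 0.08 in obe2/Df (adjusted p = 0.0238) did not pass without OreR replicate 1, obe2/Df replicate 1 or obe2/Df replicate 3 (adjusted p at most 0.0833). With the replicate numbers as a block its adjusted p was 0.0504, and that of Aats-thr in obe1/obe2 was 0.0525.

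The remaining 3 cytosolic members passed in neither comparison with OreR. Aats-asn, the asparaginyl enzyme, had 7576, 6692 and 7380 normalized counts in obe2/Df, 6873, 5169 and 7173 in obe1/obe2 and 8090, 7992 and 8960 in OreR. Both mutants were wholly below OreR, with log2 differences of -0.21 ± 0.13 (adjusted p = 0.17) in obe2/Df and -0.40 ± 0.13 (adjusted p = 0.0513) in obe1/obe2. The second crossed the threshold without obe1/obe2 replicate 1 or 3, at adjusted p = 0.0416 and 0.0437, and with the block, at 0.033. Aats-val, the valyl enzyme, had 10241, 8418 and 7981 in obe2/Df, 8503, 5994 and 7077 in obe1/obe2 and 8439, 10191 and 8868 in OreR, and all groups overlapped. Its difference in obe1/obe2 was -0.36 ± 0.15 (adjusted p = 0.106), or -0.49 without replicate 1 of that group (adjusted p = 0.0295). Aats-his, the histidyl enzyme, ranged from 9943 to 11442 in obe2/Df, from 8303 to 10421 in obe1/obe2 and from 9941 to 10627 in OreR, a difference of 0.06 ± 0.09 in obe2/Df (adjusted p = 0.605). Bx overlaps 8.9% of the Aats-his exon bases on the same strand, so the Aats-his count is uncertain there. Bx had 4572, 3633 and 4393 normalized counts in obe2/Df and 1520, 2161 and 2022.5 in OreR.

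Taking the most abundant members together, Aats-ile, Aats-thr and Aats-lys held 33.6 to 36.7% of the members' summed counts in obe2/Df, 42.2 to 50.3% in obe1/obe2 and 48.7 to 50.1% in OreR. These 3 were chosen after their values were seen, and no test was made. The 21 members summed to 0.228 to 0.241% of all normalized counts in obe2/Df, 0.191 to 0.210% in obe1/obe2 and 0.218 to 0.226% in OreR. By this share the obe2/Df libraries were highest and the obe1/obe2 libraries lowest, with no overlap between groups. In summed normalized counts of the members, obe2/Df (176816 to 193209) overlapped OreR (184125 to 191205). The obe1/obe2 libraries were lowest there too, at 152407 to 169415.

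**Figure D3:**
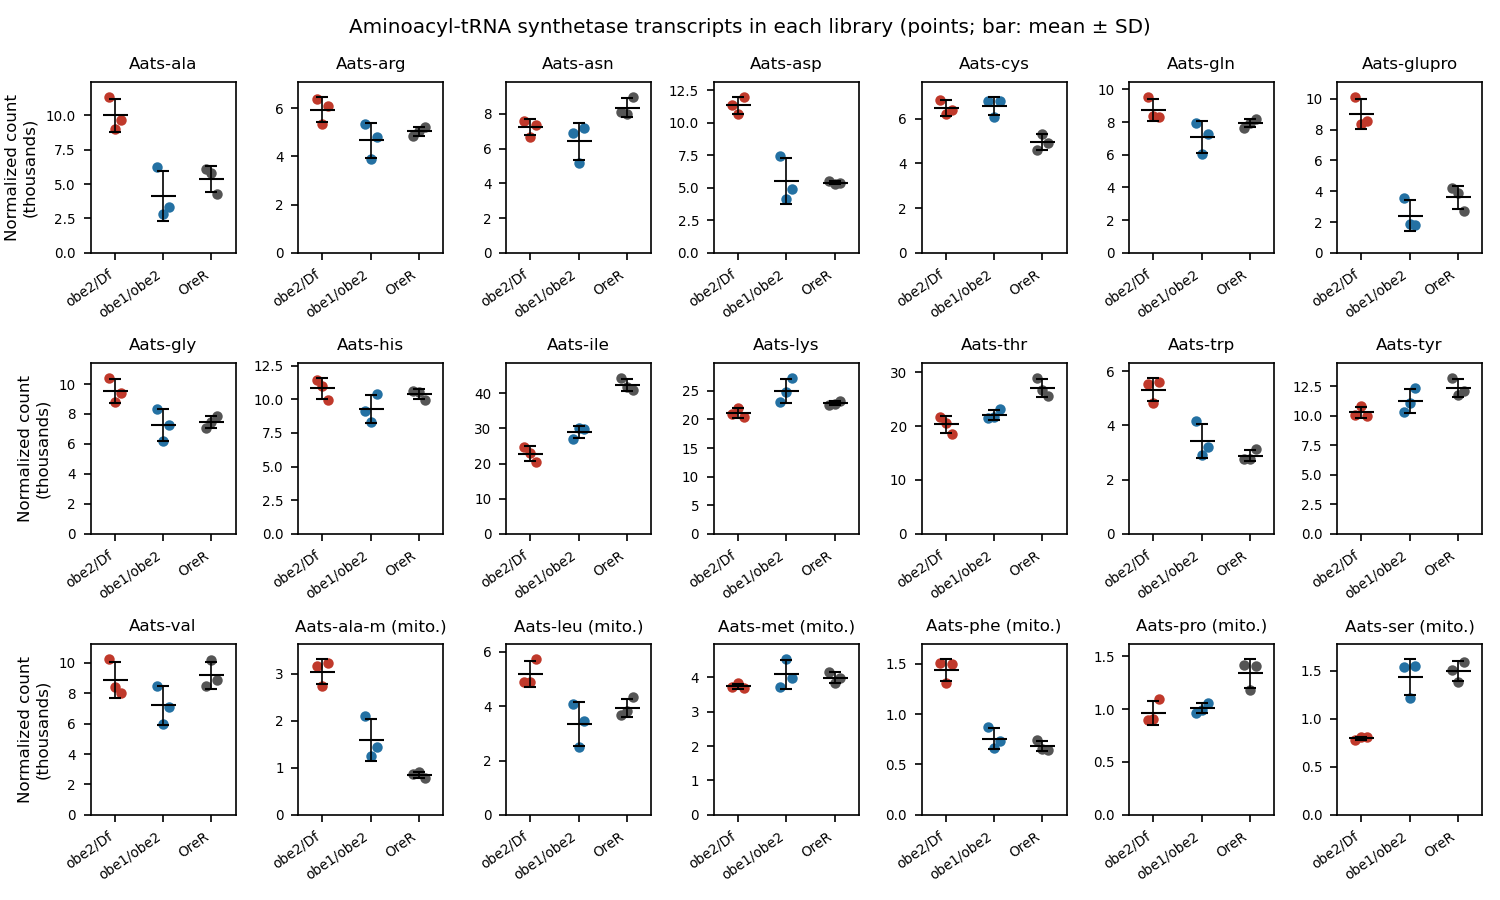
Normalized counts in units of 1000 (axes from 0) of each Aats- gene in the 9 libraries, obe2/Df, obe1/obe2 and OreR from left to right in each panel, with the group mean ± SD over 3 libraries. Genes marked mito. encode mitochondrial enzymes. Aats-ala-m steps down from obe2/Df through obe1/obe2 to OreR, Aats-ile steps up, and Aats-ser is low in obe2/Df alone among the 3 groups.

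Of the 6 mitochondrial members, 2 rose and 2 fell in obe2/Df against OreR (66.7% called, close to the 60.5% of all tested genes). For none of these 6 did the obe2/Df libraries overlap the OreR ones, which also held for 70.5% of all tested genes. Aats-ala-m, the mitochondrial alanyl enzyme, had 3175, 2742 and 3226 normalized counts in obe2/Df, 2103, 1242 and 1444 in obe1/obe2 and 868, 905 and 777 in OreR. The 3 groups were fully separate. It stood at 3.58 times the OreR level in obe2/Df (log2 difference 1.84 ± 0.19, adjusted p = 0.000164) and at 1.83 times in obe1/obe2 (0.87 ± 0.19, adjusted p = 0.0106), and both calls held without any single library.

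Aats-phe, the mitochondrial phenylalanyl enzyme, had 1505, 1309 and 1492 normalized counts in obe2/Df, 867, 660 and 736 in obe1/obe2 and 740, 655 and 647 in OreR. In obe2/Df it was 1.08 ± 0.14 higher than in OreR on the log2 scale (adjusted p = 0.000573). The obe1/obe2 libraries overlapped OreR, at 0.14 ± 0.14 (adjusted p = 0.503). Aats-leu, the mitochondrial leucyl enzyme, had 4886, 4907 and 5736 in obe2/Df, 4089, 2507 and 3454 in obe1/obe2 and 3661, 3821 and 4324 in OreR. Its difference of 0.40 ± 0.17 in obe2/Df missed the threshold (adjusted p = 0.0697), and passed without obe1/obe2 replicate 1 or 2 (adjusted p = 0.0317 and 0.014), libraries that enter this contrast only through the shared spread.

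Aats-met and Aats-pro, the mitochondrial methionyl and prolyl enzymes, lay below OreR in all obe2/Df libraries, by margins of unlike size. Aats-met had 3720, 3826 and 3684 normalized counts in obe2/Df, 3726, 4531 and 3993 in obe1/obe2 and 4145, 3847 and 3984 in OreR, a difference of -0.09 ± 0.09 in obe2/Df (adjusted p = 0.379). Aats-pro had 893, 908 and 1094 in obe2/Df, 966, 994 and 1061 in obe1/obe2 and 1420, 1181 and 1410 in OreR, so that both mutants were wholly below OreR. It fell by 0.47 ± 0.13 in obe2/Df (adjusted p = 0.0146), a call lost without OreR replicate 1, obe2/Df replicate 1 or obe2/Df replicate 2 (adjusted p at most 0.0556) and at -0.83 after quantile normalization. In obe1/obe2 the difference of -0.40 ± 0.13 missed the threshold (adjusted p = 0.0598), and passed at -0.49 without OreR replicate 2 (adjusted p = 0.0461).

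Aats-ser, the mitochondrial seryl enzyme, lies on arm 3R, the arm that carries obe. It had 782, 809 and 807 normalized counts in obe2/Df, 1538, 1219 and 1550 in obe1/obe2 and 1515, 1388 and 1593 in OreR. The obe2/Df libraries were well below all others and the narrowest of any member in that group, with a coefficient of variation of 1.88%, while obe1/obe2 and OreR overlapped. In obe2/Df it fell by 0.90 ± 0.13 (adjusted p = 0.00074), to 0.535 of the OreR level. In obe1/obe2 the log2 difference was -0.07 ± 0.13 (adjusted p = 0.734). The difference between the mutants, obe2/Df minus obe1/obe2, was -0.84 ± 0.13 (adjusted p = 0.00259), and -1.25 after quantile normalization.

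In the reference gene order Aats-ser is not next to obe: 25 protein-coding genes lie between. All 5 tested genes among the 3 on either side of Aats-ser fell in obe2/Df against OreR, where 29.5% of all tested genes were called lower. In obe1/obe2 against OreR 0 of the 5 passed limma's test (1 at an unadjusted p under 0.05, 0 by edgeR and 1 by DESeq2). FK506-bp1, an FK506-binding prolyl isomerase, was at -1.34 ± 0.11 on the log2 scale in obe2/Df against OreR, and Sra-1, a subunit of the actin-regulating WAVE complex, at -1.56 ± 0.09. CG6218, which overlaps Aats-ser on the opposite strand over 13.9% of the Aats-ser exon bases, was at -1.08 ± 0.18. Its values were 503, 415 and 460 in obe2/Df, 879, 962 and 630 in obe1/obe2 and 1067, 946 and 909 in OreR, and without strand its reads cannot be told apart from those of Aats-ser in the overlap. On the other side, Surf4 was at -1.19 ± 0.11 (adjusted p = 0.000114) and CG31301 at -1.39 ± 0.09 (adjusted p = 2.01e-05).

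Across the whole stretch of 33 genes, from 3 before Aats-ser to 3 past obe and both included, 19 were tested, and 14 of these fell in obe2/Df against OreR while 0 rose by limma, at an unadjusted p, by edgeR or by DESeq2 (CG5044, at 0.70, was called higher with array weights, with the replicate block, in the fit on the 6 libraries compared and without obe1/obe2 replicate 1). The 14 that fell include obe and Aats-ser and make up 73.7% of the 19, against 29.5% of all tested genes. The tested genes that did not pass all lie between Aats-ser and obe: CG6194 (-0.28), CG5044 (0.70), ldlCp (-0.405), CG14868 (-0.46) and CG6136 (0.04). The median log2 difference of the 19 was -1.08, against -0.01 over all tested genes. CG34404 stood lowest after obe, at -1.57 ± 0.16. In obe1/obe2 against OreR, 11.7% of all tested genes were called lower and 21.1% of the 19. In obe1/obe2, 4 of the 19 fell (7 by DESeq2 or with array weights), obe and with it CG34404 (-1.01 ± 0.16), Trax (-0.53 ± 0.11) and CG6171 (-0.32 ± 0.10, a call lost in 6 of the 9 fits that left out a library, by edgeR at an adjusted p of 0.0526 with the replicate block at 0.0814 and after quantile normalization at 0.143), and CG5038 rose (0.54 ± 0.10, adjusted p = 0.0061). CG5038 was at -0.66 ± 0.10 in obe2/Df (adjusted p = 0.00109), or -1.0 after quantile normalization. CG42726, 3 places from Aats-ser towards obe, had no reads in any library. The labels do not give the ends of the deficiency, so which of these genes it removes is not known here.

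**Figure D4:**
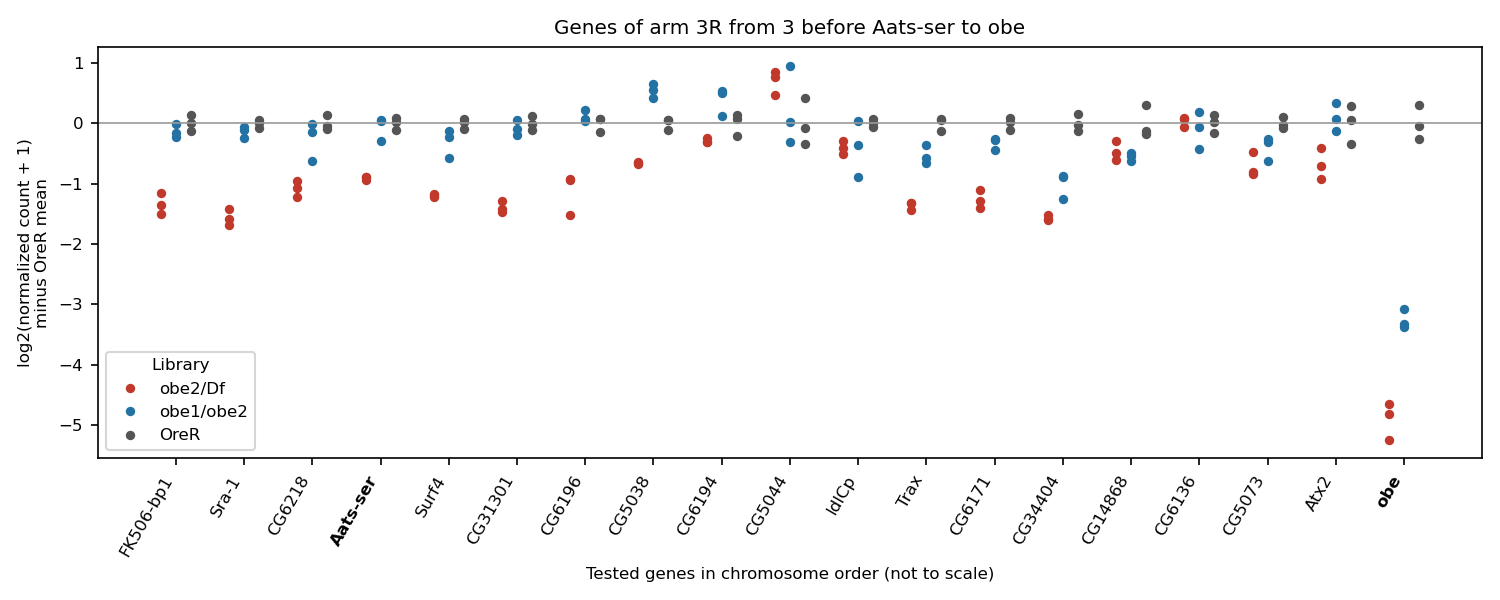
Each point is 1 library: log2(normalized count + 1) minus the OreR mean for the 19 tested genes of arm 3R from 3 before Aats-ser to obe, in chromosome order with equal spacing. In obe2/Df the 3 tested genes before Aats-ser, Aats-ser itself and the 2 after it lie about 1 log2 unit or more below OreR, and obe itself lies lowest in both mutants.

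Between the mutants, obe2/Df against obe1/obe2, 13 members passed: 10 higher and 3 lower in obe2/Df. Of all tested genes 25.2% were called higher and 19.5% lower, 44.7% together, against 61.9% of the members. The members' median log2 difference was 0.31 and that of all tested genes -0.03, the members' value being 0.19 without obe1/obe2 replicate 2 and 0.20 without obe2/Df replicate 1. Aats-glupro differed most, at 1.97 ± 0.27 or 3.91-fold (adjusted p = 0.00215), followed by Aats-ala at 1.36 ± 0.27 (adjusted p = 0.00491) and Aats-asp at 1.08 ± 0.18 (adjusted p = 0.00288). For all 3 the obe2/Df libraries lay wholly above the obe1/obe2 ones, as they did for 10 members in all, with 3 members wholly below. Of all tested genes 30.7% lay wholly above and 29.2% wholly below, 59.8% together. Aats-ala-m was 0.96 ± 0.19 higher, Aats-phe 0.93 ± 0.14, Aats-leu 0.65 ± 0.17 and Aats-trp 0.65 ± 0.14, with Aats-ala-m at 0.63 and Aats-phe at 0.43 after quantile normalization.

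Over the obe1/obe2 level, Aats-gly was 0.40 ± 0.11, Aats-arg 0.35 ± 0.12 and Aats-gln 0.31 ± 0.11 higher in obe2/Df. Besides Aats-ser, the genes lower in obe2/Df were Aats-ile at -0.35 ± 0.08 (adjusted p = 0.00953) and Aats-lys at -0.24 ± 0.07 (adjusted p = 0.0233). The calls for Aats-arg, Aats-gln, Aats-gly, Aats-leu and Aats-lys each failed in at least 1 fit that left out a library. Without obe2/Df replicate 3, 8 members passed, 6 of them higher. That fit called 2583 of all 8346 tested genes, 1578 of them higher, where 3730 and 2100 were called with every library.

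Spread within groups was widest in obe1/obe2. The median coefficient of variation over the 21 members was 7.97% in obe2/Df, 13.9% in obe1/obe2 and 6.39% in OreR, with Aats-ala at 44.3% in obe1/obe2 the extreme. In that group replicate 1 was the highest library for 11 members and replicate 2 the lowest for 14. The same libraries differed in the zygotic markers, whose sum was 111330 in replicate 1, 256568 in replicate 2 and 114551 in replicate 3 of obe1/obe2.

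The 14 synthetase genes under other symbols comprise 5 cytosolic and 9 mitochondrial ones. In obe2/Df against OreR, 9 were higher and 2 lower (64.3% and 14.3%, against 31.0% and 29.5% of all tested genes). Their median log2 difference was 0.68. All 5 cytosolic ones rose. The largest differences were those of CG5414, the mitochondrial isoleucyl enzyme, at 1.77 ± 0.34 (adjusted p = 0.00281), and CG5660, the mitochondrial valyl enzyme, at 1.43 ± 0.18 (adjusted p = 0.000405). CG5706, the beta subunit of cytosolic phenylalanyl-tRNA synthetase, followed at 1.18 ± 0.26, and CG15100, the cytosolic methionyl enzyme, at 1.14 ± 0.25. CG8257 and CG31739, the mitochondrial cysteinyl and aspartyl enzymes, fell by 0.54 ± 0.11 and 0.37 ± 0.07 (adjusted p = 0.00288 and 0.00293).

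In obe1/obe2 against OreR, 0 of these 14 rose by limma (1 at an unadjusted p under 0.05, 0 by edgeR and 0 by DESeq2) and CG8257 fell (-0.38 ± 0.11, adjusted p = 0.0335), a call lost in 6 of the 9 fits that left out a library. Without obe1/obe2 replicate 1, 5 were called lower, CG7441 at -1.21, CG5706 at -0.75, CG15100 at -0.63 and CG17259 at -0.49 among them. That fit called 1399 of all 8346 tested genes lower, where 973 were called with every library. Over all 35 synthetase genes, 17 rose and 7 fell in obe2/Df against OreR (48.6% and 20.0%, against 31.0% and 29.5% of all tested genes). In obe1/obe2 against OreR, 2 rose and 3 fell (5.71% and 8.57%, against 11.0% and 11.7% of all tested genes).

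For 15 amino acids the matrix lists both a cytosolic and a mitochondrial enzyme, Aats-glupro being the cytosolic one for both glutamate and proline. In obe2/Df against OreR, both compartments had calls for 8 amino acids, in the same direction for 2 (alanine and phenylalanine) and in opposite directions for 6. Of all tested genes 31.0% were called higher there and 29.5% lower. In obe2/Df against obe1/obe2 the directions were the same for 4 amino acids and opposite for 3. There 25.2% of all tested genes were called higher and 19.5% lower. In obe1/obe2 against OreR, cysteine alone had calls in both compartments, in opposite directions (11.0% of all tested genes were called higher there and 11.7% lower). For serine in obe2/Df against OreR, the cytosolic gene CG17259 rose while Aats-ser fell. CG17259, named here because it serves the same amino acid, had 7494, 6936 and 7419 normalized counts in obe2/Df, 4396, 2512 and 3078 in obe1/obe2 and 4160, 3784 and 3763 in OreR (0.90 ± 0.18 in obe2/Df against OreR, adjusted p = 0.0028). For isoleucine the order was turned round: Aats-ile fell by 0.90 and CG5414 rose by 1.77. The cytosolic gene was the higher one for aspartate, cysteine and proline (Aats-glupro) as well. For tyrosine Aats-tyr fell while CG16912 rose by 0.37 ± 0.14 (adjusted p = 0.0416). The CG16912 call was lost in 7 of the 9 fits that left out a library, and the difference was 0.006 after quantile normalization (adjusted p = 0.973). The Aats-pro and Aats-tyr calls each held in 6 of those 9 fits.

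Around the enzymes themselves, the partners and elongation factors moved in opposite ways. Of 12 genes, 4 rose and 5 fell in obe2/Df against OreR (33.3% and 41.7%, against 31.0% and 29.5% of all tested genes). The median of the 12 was -0.14. The scaffold genes CG30185 (AIMP3) and CG8235 (AIMP1) rose by 1.18 ± 0.21 and 1.0 ± 0.22 (adjusted p = 0.00204 and 0.00521). Slimp, a seryl-tRNA synthetase relative without charging activity that binds the mitochondrial seryl enzyme, had 1152, 1110 and 1376 normalized counts in obe2/Df, 1342, 1168 and 1431 in obe1/obe2 and 634, 658 and 761 in OreR. Both mutants were wholly above OreR, by 0.82 ± 0.14 in obe2/Df (adjusted p = 0.00181, and 0.51 after quantile normalization) and 0.94 ± 0.14 in obe1/obe2 (adjusted p = 0.0021).

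CG6412, the mitochondrial elongation factor Ts, rose by 0.46 ± 0.12 in obe2/Df. Among the cytosolic elongation factors Ef1alpha100E, a minor form of the factor that brings charged tRNA to the ribosome, fell by 2.19 ± 0.48 to 13.7, 25.7 and 30.5 counts in obe2/Df, against 158, 90.5 and 80.0 in OreR. The main form, Ef1alpha48D, was at -0.12 ± 0.10 (adjusted p = 0.333). Ef2b, the translocation factor, fell by 0.50 ± 0.10 (adjusted p = 0.00328), a call lost after quantile normalization (-0.15, adjusted p = 0.174). Ef1beta and eEF1delta, subunits of the exchange factor for elongation factor 1, fell by 0.39 ± 0.11 and 0.35 ± 0.09 in obe2/Df (adjusted p = 0.0115 and 0.00935), and both calls were lost after quantile normalization (-0.15 and -0.18, adjusted p = 0.181 and 0.129). The fifth gene that passed lower, Ef1gamma, was at -0.23 ± 0.09 (adjusted p = 0.0469), a call lost in 8 of the 9 fits that left out a library, and at 0.06 after quantile normalization. In obe1/obe2 against OreR, Slimp was the only gene of the 12 that limma, edgeR or DESeq2 called, with CG8235 at -0.73 (adjusted p = 0.0107) once replicate 1 of that group was left out.

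Among 14 genes of the amino acid response and eIF2, 6 rose and 4 fell in obe2/Df, and 2 rose and 5 fell in obe1/obe2, each against OreR. For obe2/Df that is 42.9% and 28.6%, against 31.0% and 29.5% of all tested genes. For obe1/obe2 it is 14.3% and 35.7%, against 11.0% and 11.7% of all tested genes. Leaving out 1 library gave 2 to 4 lower in obe2/Df and, in obe1/obe2, 0 to 3 higher and 3 to 6 lower, and the replicate block gave 0 higher in obe1/obe2. The asparagine-synthetase gene, which makes asparagine, had 6885, 6698 and 6718 normalized counts in obe2/Df, 8524, 9014 and 9555 in obe1/obe2 and 20287, 16439 and 19180 in OreR. It fell by 1.46 ± 0.09 in obe2/Df (adjusted p = 1.25e-05) and by 1.04 ± 0.09 in obe1/obe2 (adjusted p = 8.53e-05). Gcn2, the kinase that senses uncharged tRNA, likewise fell in both, by 0.69 ± 0.09 and 0.88 ± 0.09 (adjusted p = 0.000375 and 0.000185). The genes of serine and glycine synthesis were higher in obe2/Df: CG11899 by 1.21 ± 0.17, CG3011 by 1.0 ± 0.19 and CG6287 by 0.99 ± 0.17. Sesn, a sestrin that signals amino acid supply, rose by 0.76 ± 0.16 there (adjusted p = 0.00429), and crc, the fly ATF4, fell by 0.31 ± 0.12 (adjusted p = 0.0464), a call lost in 7 of the 9 fits that left out a library. In obe1/obe2 PEK, another eIF2 kinase, rose by 0.30 ± 0.08 (adjusted p = 0.0221), a call lost without OreR replicate 1 or obe1/obe2 replicate 3. The phosphoserine phosphatase gene aay was 0.23 ± 0.07 higher in obe1/obe2 (adjusted p = 0.0358), and 8 of the 9 such fits did not call it.

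The eIF2 subunit genes differed between the mutants. In obe1/obe2 all 3 fell against OreR, eIF-2alpha by 0.91 ± 0.10, eIF-2beta by 0.67 ± 0.20 and eIF-2gamma by 0.61 ± 0.14. The eIF-2beta call was lost in 7 of the 9 fits that left out a library (adjusted p at most 0.14) and by edgeR (adjusted p = 0.052), and the eIF-2gamma call without OreR replicate 3 or obe1/obe2 replicate 3 (adjusted p = 0.0608 and 0.0571). In obe2/Df, eIF-2alpha fell by 0.29 ± 0.10 (adjusted p = 0.0337, lost without any 1 of the OreR or obe2/Df libraries, at 0.0513 to 0.107), eIF-2beta rose by 0.74 ± 0.20 (adjusted p = 0.0115) and eIF-2gamma was at 0.23 ± 0.14 (adjusted p = 0.199). Tested directly, obe2/Df exceeded obe1/obe2 by 0.61 ± 0.10, 1.41 ± 0.20 and 0.84 ± 0.14 for the 3 genes (adjusted p = 0.00277, 0.00226 and 0.00307).

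Of 11 tRNA processing and modification genes, 5 rose and 2 fell in obe2/Df against OreR (45.5% and 18.2%, against 31.0% and 29.5% of all tested genes). That is 63.6% together, close to the 60.5% of all tested genes. After quantile normalization 4 were higher and 4 lower, as were 2434 and 2595 of all 8346 tested genes. La, which binds the ends of newly made tRNA precursors, had 12137, 12504 and 13471 normalized counts in obe2/Df, 5449, 1956 and 2217 in obe1/obe2 and 4298, 3017 and 2648 in OreR, a rise of 1.97 ± 0.35 in obe2/Df (adjusted p = 0.00196). CG9987 (RtcB), the tRNA ligase, rose by 1.41 ± 0.26 and JhI-1, the nuclease RNase Z that trims tRNA ends, by 1.13 ± 0.20. Elp2, a subunit of the Elongator complex that modifies tRNA, rose by 0.95 ± 0.28 (adjusted p = 0.0179), a call lost without OreR replicate 3 (adjusted p = 0.061) or obe2/Df replicate 1 (adjusted p = 0.0559) and after quantile normalization (adjusted p = 0.061). CG2100 fell by 0.35 ± 0.10 (adjusted p = 0.0133), lost without OreR replicate 1. Tgt, which puts queuosine precursors into tRNA, fell in both mutants, and further in obe1/obe2: it had 1637, 1658 and 1896 in obe2/Df, 712, 353 and 340 in obe1/obe2 and 4216, 4176 and 4440 in OreR. The log2 differences from OreR were -1.31 ± 0.25 in obe2/Df and -3.28 ± 0.25 in obe1/obe2 (adjusted p = 0.00281 and 6.07e-05), and obe2/Df exceeded obe1/obe2 by 1.97 ± 0.25 (adjusted p = 0.0019). Nsun2, a tRNA cytosine methyltransferase, was the 1 gene of the 11 that limma called higher in obe1/obe2 against OreR, by 0.27 ± 0.08 (adjusted p = 0.0356), a call lost with the replicate block and in 6 of the 9 fits that left out a library, among them each without an OreR library. DESeq2 called Mt2 (0.56, adjusted p = 0.0236) and JhI-1 (0.53, adjusted p = 0.0459) higher there as well, as did the fit after quantile normalization.

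**Figure D5:**
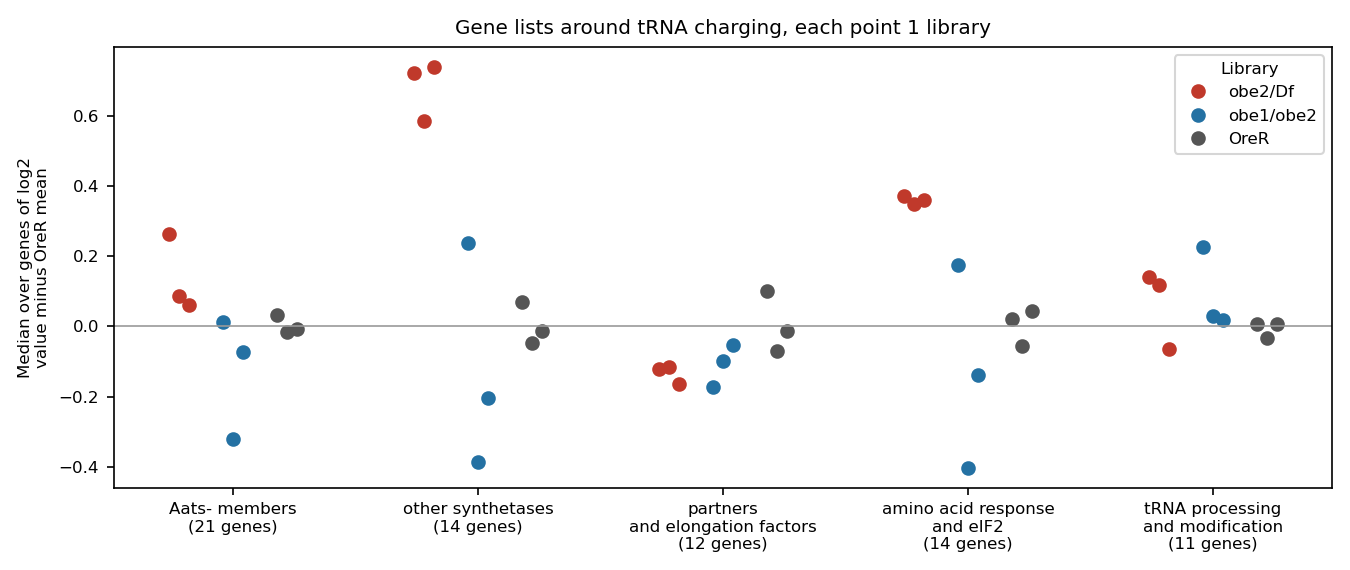
Median over the genes of each list of log2 value minus the OreR mean, 1 point per library, for obe2/Df, obe1/obe2 and OreR from left to right. The other synthetases lie highest in obe2/Df, at 0.58 to 0.74, while the Aats- genes lie between 0.06 and 0.26 there, and obe1/obe2 replicates are spread widely in both lists.

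In the authors' deposited table for obe2/Df against OreR, 2 members passed an adjusted p of 0.05: Aats-ala-m with a fold of 3.586 (adjusted p = 0.001741) and Aats-glupro with a fold of 2.505 (adjusted p = 0.03662). Of the 12280 genes with an adjusted p in that table, 1559 passed. The authors' deposited table for obe1/obe2 against OreR called 0 of the 21, with Aats-ala-m at an unadjusted p of 0.04911. There 525 of 12504 genes passed.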

How the data were processed

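The 9 libraries were made with TruSeq v2, a kit that does not mark strand. Build dm3, STAR, Cuffdiff and Cufflinks 2.1.1 appear in the submitters' processing notes, with no steps. For the annotation, no source used here gives it. The deposited signal values are read counts per gene, scaled by the authors with a single factor in each library: 100% came back as whole reads within 0.001. The deposited tables hold the authors' fold, a ratio of group means, and their p-values.

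Genes with a mean of at least 10 (8346) were tested as log2(normalized count + 1) with limma 3.58.1 (R 4.3.3, trend, 3 groups in 1 fit, Benjamini-Hochberg over all). A fold on this scale is of log2 means. The fit was also run on simulated data with the OreR spread in every group, which cannot test it where groups differ in spread. edgeR 4.0.16 and DESeq2 1.42.0 ran on recovered reads, where edgeR called 4984 genes for obe2/Df against OreR, 1811 for obe1/obe2 against OreR and 3674 for obe2/Df against obe1/obe2. Levels per kb use exon lengths of a later build, and no coordinates are given. Symbols were matched by synonym: 278 of 15334 genes and 1 of 118 listed symbols (nSyb) had no match.

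Every member is named. Of the pathway and gene-order lists, up to 4 genes called against OreR per direction by size are named. obe and 3 genes on either side of Aats-ser are also named. CG7441, CG16912, CG17259, Ef1alpha48D, Ef1gamma, CG5044, Mt2, Nmda1, CR43468 and the eIF2 subunits were chosen after their values were seen. So were Lsp1gamma, Jon65Ai, Bx, CG6194, ldlCp, CG14868 and CG6136. Members and lists were chosen with earlier results of these data known. Lists were described by counts and medians, with no set test.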

Additional observations from a re-analysis of the deposited data

How the results depend on the processing

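For obe1/obe2 against OreR, array weights gave 10 members called, 7 of them lower, and DESeq2 gave 4 lower. Leaving out both obe libraries numbered 1, chosen after seeing the data, gave 7 called and 5 lower. Leaving out 1 library at a time gave 3 to 7 called and 1 to 5 lower. The authors' deposited tables called 0 members there, 0 higher and 0 lower, and for obe2/Df against OreR 2, with 2 higher and 0 lower. For obe2/Df against OreR, leaving out 1 library gave 3 to 6 lower. For obe2/Df against obe1/obe2, array weights gave 5 lower, and leaving out 1 library gave 8 to 14 called, 6 to 11 higher and a median log2 difference of 0.19 to 0.40. Aats-ser in obe1/obe2 against OreR was 0.008 after quantile normalization, 0.003 with array weights and -0.13 to 0.046 without 1 library, all short of the threshold. In obe2/Df the authors' deposited table has it at -0.91 with an adjusted p of 0.261. The cause of these shifts was not tested.

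Over all genes, quantile normalization called 1129 higher and 776 lower in obe1/obe2 against OreR, where 916 and 973 were called as reported. For obe2/Df against obe1/obe2 it called 1828 higher and 2389 lower, where 2100 and 1630 were called as reported. Array weights called 3451 genes in obe1/obe2 against OreR, where 1889 were called as reported. Leaving out 1 library at a time called 1301 to 2211 genes there, with 619 to 1399 lower. Leaving out both obe libraries numbered 1 called 2124, with 1349 lower. For obe2/Df against OreR, leaving out 1 library called 2013 to 2487 lower. For obe2/Df against obe1/obe2 it called 2583 to 4034, with 1578 to 2265 higher. The authors' deposited tables called 1559 of 12280 genes in obe2/Df and 525 of 12504 in obe1/obe2, each against OreR. Among the members and the other listed genes called, 1 reversed sign under an alternative: Ef1gamma in obe2/Df against OreR was at 0.06 after quantile normalization (adjusted p = 0.452), against -0.23 as reported. With the replicate number as a block, 1581 genes were called in obe1/obe2 against OreR, 4854 in obe2/Df against OreR and 3370 in obe2/Df against obe1/obe2. Same-numbered libraries did not vary together throughout (correlations from -0.197 to 0.521), so the numbers were not taken to pair the samples. Where a group was left with 2 libraries, its spread came from the pooled fit. Depth did not limit the members, whose mean counts were all at least 956.79.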
